A study of Homo sapiens with 6 samples.

Results

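RNA polymerase I is the nuclear enzyme that makes ribosomal RNA, and 10 genes of its machinery were examined for N-Myc and JMJD6 binding in CHP-134 cells. They comprise 8 genes for polymerase subunits (POLR1A, POLR1B, POLR1C, POLR1D, POLR1E, CD3EAP, TWISTNB and ZNRD1) and 2 genes for factors that act with the enzyme at its promoter (UBTF and RRN3). Promoters, typical enhancers and super-enhancers each had a list for N-Myc, for JMJD6 and for regions bound by both, giving 9 region lists. A gene counted as listed when any of these gave its symbol. Common peaks were those found in all 3 replicates of an antibody, and the peaks of a listed gene were those overlapping a region that named it. Of the 10 genes, 8 were listed in at least 1 region list, out of 8279 gene symbols in the 9 lists together. CD3EAP, TWISTNB and ZNRD1 are now named POLR1G, POLR1F and POLR1H, and 0 of these newer symbols occurred in the lists. The genes were chosen as a pathway after it was known that POLR1A and CD3EAP lay among the promoters bound by both proteins, so they were selected on being listed or not listed in these files, and counts of listed genes are given as a description.

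The data are ChIP-seq (sequencing of immunoprecipitated chromatin) from CHP-134, a human neuroblastoma cell line grown in RPMI medium with fetal bovine serum, with no other treatment. The 6 samples formed 2 groups of 3 replicates. The N-Myc group was precipitated with the N-Myc antibody sc-53993 after cross-linking with formaldehyde alone, and the JMJD6 group with the JMJD6 antibody ab64575 after cross-linking with DSG (disuccinimidyl glutarate) and then formaldehyde. MYCN encodes N-Myc, a transcription factor of the Myc family, and JMJD6 belongs to the jumonji family, whose members modify histones and other proteins. The comparison asks where in the genome both proteins are found together. The antibody and the cross-linking changed together, so a difference between the N-Myc and JMJD6 lists cannot be told apart from a difference in cross-linking. The lists give positions of peaks found in all 3 replicates, with no height, score or count, so the depth behind a peak and the spread between replicates are unknown, and a gene without a peak is one not listed under these thresholds. The lists also hold no expression values, and the cell type named in the labels could not be checked against markers.

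RNA polymerase I works in the nucleolus, where it transcribes the repeated ribosomal DNA into a single precursor that is cut into the large ribosomal RNAs. UBTF coats the ribosomal DNA and its promoter, the TBP-containing complex SL1 marks the start, and RRN3 joins the polymerase to SL1. Myc proteins are known to raise ribosome production, and N-Myc recognizes the E-box, a short DNA motif, together with MAX. The peaks described here lie at the genes that encode the machinery, and binding on the ribosomal DNA repeats themselves was not examined.

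N-Myc was listed at the promoters of 7 of the 10 genes, namely POLR1A, POLR1B, POLR1C, POLR1E, CD3EAP, TWISTNB and RRN3, where a promoter is 1 kb on each side of a RefSeq start site. Among 20136 annotated protein-coding genes, 3526 had an N-Myc promoter row, which is 17.5%. JMJD6 was listed at the promoters of 2 of the 10, POLR1A and CD3EAP, and both were also in the list bound by both proteins. Of the protein-coding genes, 0.626% had a JMJD6 promoter row and 0.298% had one for both. POLR1D, ZNRD1 and UBTF had no promoter row for either protein. By kind of gene, 6 of the 8 subunit genes and 1 of the 2 factor genes had an N-Myc promoter row.

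**Figure D1:**
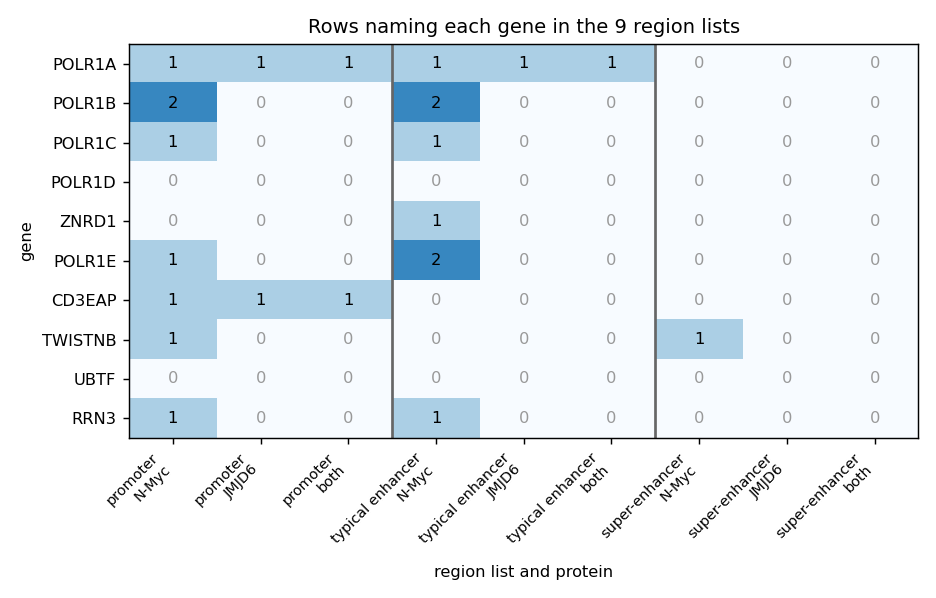
Number of rows naming each of the 10 genes (vertical axis) in each of the 9 region lists (horizontal axis, region and protein). POLR1A appears in 6 lists and CD3EAP in 3, the other listed genes appear only in N-Myc lists, and POLR1D and UBTF have 0 in every list.

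The DNA under the N-Myc peaks is shown for sites that can be compared by their E-boxes, as 30-base windows of the GRCh37 (hg19) reference read on the strand of the gene. The canonical E-box CACGTG, which reads the same on both strands, is in capitals. It was found in the promoter peaks of POLR1B, POLR1E and CD3EAP.
POLR1B, chr2:113300183-113300212, plus strand: ctgacgcgggcgCACGTGgagtccttcaac
POLR1E, chr9:37485534-37485563, plus strand: gagctggatgtcCACGTGggtgggtgggaa
CD3EAP, chr19:45909131-45909160, plus strand: caaatctgtgtcCACGTGccgctgtttaca
CD3EAP, chr19:45909878-45909907, plus strand: cccctttggatcCACGTGgtctgcaacctg
Counted from the listed start site, whose first base is 0, these E-boxes began at +703 in POLR1B, -386 in POLR1E, and -324 and +423 in CD3EAP. The POLR1B site lay in coding sequence in some transcripts and in untranslated sequence in others. The first CD3EAP site lay in an intron of the neighbouring PPP1R13L, and the second lay between genes in the GENCODE annotation, just before the MANE Select start of CD3EAP at position 45909902.

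POLR1A, POLR1C and RRN3 had no CACGTG in their peak and carried the variant CGCGTG, or its reverse complement CACGCG, which is in capitals below.
POLR1A, chr2:86332977-86333006, minus strand: cgcacgttgaatCGCGTGgtgactccgggc
POLR1A, chr2:86333582-86333611, minus strand: tggtcttaagggCACGCGaccgttaagggc
POLR1C, chr6:43484794-43484823, plus strand: gctactaggacgCACGCGcgagatagaacc
POLR1C, chr6:43484872-43484901, plus strand: gaaatgcggagcCGCGTGgttctgggggag
RRN3, chr16:15188053-15188082, minus strand: accgctgcttcaCACGCGtttgccgggaga
RRN3, chr16:15188158-15188187, minus strand: aggttgcgctggCACGCGcaacttccggga
RRN3, chr16:15188194-15188223, minus strand: atacgccctcccCACGCGgggccgctgatt
In POLR1A the sites began at +284, in its 5' untranslated region, and at -321, in an intron of the neighbouring PTCD3. In POLR1C they began at +44 and at +122, the latter in coding sequence. In RRN3 they began at +122, in coding sequence, at +17 and at -19, and all also lay in an intron or non-coding transcript of PDXDC1.

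TWISTNB is shown upstream of its start site as a contrast, since its peak held neither E-box form, nor the further form CATGTG. The stretch runs up to the base before the listed start and lies in no annotated exon.
TWISTNB, chr7:19748661-19748919, minus strand, 259 bases: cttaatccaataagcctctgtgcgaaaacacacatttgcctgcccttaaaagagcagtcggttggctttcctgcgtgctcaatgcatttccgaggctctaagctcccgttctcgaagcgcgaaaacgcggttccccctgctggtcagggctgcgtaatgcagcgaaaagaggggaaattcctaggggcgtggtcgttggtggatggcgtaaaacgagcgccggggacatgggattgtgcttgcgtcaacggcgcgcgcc

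POLR1A, which encodes the largest, catalytic subunit, was the gene with the most listings. One N-Myc peak at chr2:86332498-86333624 was 1127 bp wide and reached from 346 bp upstream to 780 bp downstream of the listed start at position 86333278 on the minus strand. The JMJD6 list held exactly the same interval. It covered 5' untranslated and coding sequence of POLR1A and of PTCD3, a mitochondrial ribosome-associated protein gene whose listed start lay 27 bp away on the other strand. PTCD3 was in the JMJD6 promoter list as well, so the peak cannot be given to one gene of the pair. The same peak lay in a typical enhancer of 2858 bp that the N-Myc, JMJD6 and shared enhancer lists gave to POLR1A at +7 bp and to ST3GAL5 at -217134 bp. POLR1A was thus in 6 of the 9 lists, all through this same interval.

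CD3EAP, which encodes a subunit that pairs with POLR1E on the surface of the polymerase, was the other gene listed for both proteins. Its N-Myc and JMJD6 peaks were again a single interval, chr19:45909115-45910183, 1069 bp wide and reaching from 352 bp upstream to 716 bp downstream of the listed start. The interval held 5' untranslated sequence of PPP1R13L, a gene for an inhibitor of p53-family proteins. The listed start of PPP1R13L was on the other strand, 140 bp downstream of the listed CD3EAP start. It lay upstream of the MANE Select start of CD3EAP, which was at +435. PPP1R13L had a JMJD6 promoter row too, so this peak also cannot be given to a single gene of the pair. The enhancer over this peak, chr19:45908854-45910887, was in the JMJD6 list as well, but was given to PPP1R13L at -263 bp and ERCC1 at +16954 bp and not to CD3EAP. CD3EAP was therefore in the 3 promoter lists and in no enhancer list.

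For POLR1A, 36 other genes appeared in exactly the same set of lists. The nearest to it in JMJD6 peak width were PPP1R13L (1069 bp, the interval also counted for CD3EAP), PSMD3 (888 bp), HMBOX1 (838 bp), ENY2 (822 bp) and KBTBD6 (797 bp). For CD3EAP, 28 others shared its set, and the nearest in width were RNU12 (1068 bp), PTCD3 (1127 bp, the interval also counted for POLR1A), NUDCD1 (822 bp), LOC101929140 (797 bp) and ROCK1P1 (792 bp).

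The widths of these shared intervals are not separate measurements of the 2 proteins. All 241 JMJD6 common peaks that overlapped an N-Myc common peak had the same start and end in both lists. Among JMJD6 peaks over listed promoters, POLR1A ranked 6 and CD3EAP 9 by width of 124. The median there was 546 bp.

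POLR1B encodes the second-largest subunit, which forms the active centre with POLR1A. Its N-Myc peak, chr2:113299443-113300231, was 789 bp wide and reached from 49 bp upstream to 739 bp downstream of the listed start. The MANE Select start lay at +550 under the same peak, and most of the peak was upstream of that start. The peak covered 5' untranslated and coding sequence of POLR1B. A non-coding gene, LOC105373562, had a listed start on the other strand, 297 bp downstream of the listed POLR1B start and upstream of the MANE Select start. POLR1B had 2 N-Myc promoter rows, for 2 start sites under the same peak, and positions are counted from the more upstream one. An N-Myc enhancer of 1374 bp given to POLR1B at +725 bp overlapped its promoter. A second enhancer, of 13983 bp, was given to POLR1B at -53340 bp and to TTL at +6421 bp, and its N-Myc peak lay under the TTL promoter row.

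POLR1C and POLR1D encode a pair of subunits that RNA polymerases I and III share. POLR1C had an N-Myc peak of 552 bp, chr6:43484578-43485129, from 184 bp upstream to 367 bp downstream of the start, and the head-to-head gene YIPF3 had its listed start 34 bp away. An N-Myc enhancer of 2306 bp covered the same start. POLR1D had no row in any list, and 0 common peaks lay in its gene body. The nearest N-Myc peak was 247 kb upstream of the POLR1D start and the nearest JMJD6 peak 13510 kb downstream, so the partners in this pair of subunits differed in listing.

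POLR1E, whose product pairs with that of CD3EAP, had an N-Myc peak of 770 bp, chr9:37485446-37486215, from 486 bp upstream to 283 bp downstream of the start. It was the only member with a second N-Myc peak in its gene body, chr9:37487093-37487442, which was 350 bp wide, lay in intronic sequence and was part of an enhancer given to POLR1E at +923 bp. That second peak held a canonical E-box at +1345, shown in the next line.
POLR1E, chr9:37487265-37487294, plus strand: aagctctgaggcCACGTGgggaagagtaca
A further enhancer, given to POLR1E at -20314 bp, had its N-Myc peak under the promoter row of ZBTB5. POLR1E had no partner gene over its promoter row.

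TWISTNB encodes a subunit of the stalk, where the polymerase meets RRN3. Its N-Myc peak, chr7:19748542-19748919, was the narrowest of the 7 at 378 bp and reached from 259 bp upstream to 118 bp downstream of the start. TWISTNB was also the only member named in a super-enhancer list. That N-Myc super-enhancer of 12857 bp lay +561577 bp from TWISTNB and -2089 bp from FERD3L, and 1 of its 2 N-Myc peaks lay under the FERD3L promoter row. Genes were assigned to such regions by distance alone.

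ZNRD1 encodes a small zinc ribbon subunit that takes part in RNA cleavage. It had no promoter row, and 0 common peaks lay in its gene body. Its only row was an N-Myc enhancer of 7905 bp, chr6:30028097-30036001, given to ZNRD1 at +3018 bp and to PPP1R11 at -2816 bp. The enhancer held the ZNRD1 start, but its N-Myc peak was under the PPP1R11 promoter row, 5.60 kb downstream of that start. Of the unlisted promoters, ZNRD1 had the nearest N-Myc peak, against 77.6 kb for UBTF and 247 kb for POLR1D, though still well beyond the 1 kb limit. The peaks of all 7 listed promoters covered the start itself.

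RRN3 was the listed factor gene. Its N-Myc peak, chr16:15187832-15188511, was 680 bp wide, from 319 bp upstream to 360 bp downstream of the start. The non-coding gene LOC100505915 started 76 bp away on the other strand. The peak also lay over the coding gene PDXDC1, in an intron or non-coding transcript of it. An N-Myc enhancer of 451 bp lay inside the peak's range at +90 bp. The sequence was less distinct than at the other promoters: 87.1% of the 75-base words in the RRN3 peak occurred once in the reference, and some occurred 3 times, while the share was 100% in the other 6 promoter peaks. UBTF had no row and no peak in its gene body, with the nearest N-Myc peak 77.6 kb downstream and the nearest JMJD6 peak 337 kb upstream.

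**Figure D2:**
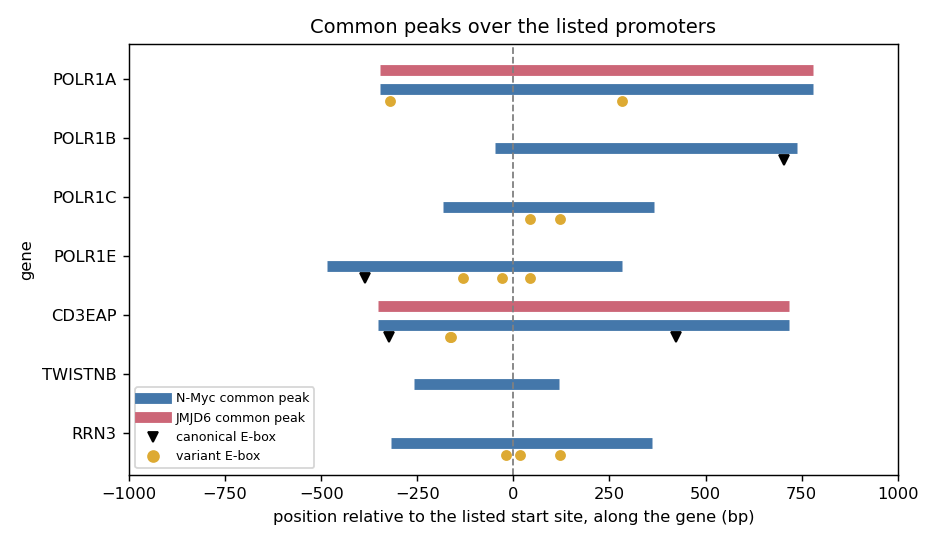
Common peaks over the 7 listed promoters. The horizontal axis is the position along the gene in bp from the listed start site (dashed line), bars are the N-Myc and JMJD6 peaks of each gene, triangles are canonical E-boxes and circles the variant named in the text. All 7 N-Myc bars cross the start, the JMJD6 bars of POLR1A and CD3EAP match their N-Myc bars, and TWISTNB has no mark.

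**Figure D3:**
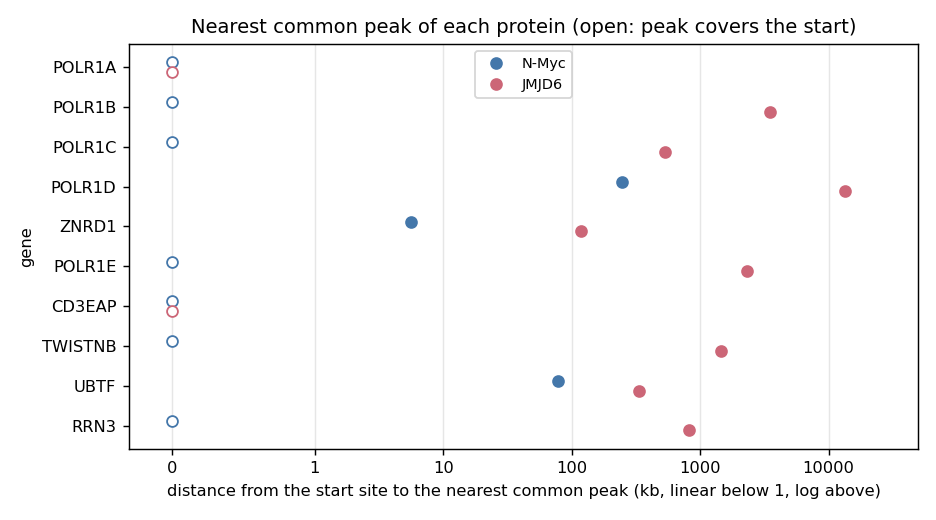
Distance in kb from each gene's start site to the nearest common N-Myc peak (blue) and JMJD6 peak (red), on an axis that is linear below 1 kb and logarithmic above. Open circles are peaks over the start. N-Myc peaks cover 7 starts and JMJD6 peaks cover 2, and the nearest JMJD6 peak of the other 8 genes lies between 119 kb (ZNRD1) and 13510 kb (POLR1D) away.

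The 7 N-Myc promoter peaks ran from 378 to 1127 bp with a median of 770 bp, and 6 of them were wider than the median of 452 bp over all 3550 N-Myc peaks at listed promoters. The 5 genes without a JMJD6 row had peaks of 378 to 789 bp, all narrower than those of POLR1A and CD3EAP. The POLR1A and CD3EAP intervals were the same in the N-Myc and JMJD6 lists. How shared intervals were set is not known, so their widths may not be comparable with those of N-Myc-only peaks. This limit also holds for the ranks and shares by width that follow. Of the 3550 peaks, 97.7% were narrower than that of POLR1A and 33.7% narrower than that of TWISTNB. Over all listed promoters, 6 of 105 N-Myc peaks at least 1069 bp wide overlapped a JMJD6 peak (5.71%), and 49 of 3550 did at any width (1.38%). The limit is the width of the CD3EAP peak, and both counts include POLR1A and CD3EAP, which were selected on this listing. Without these genes the counts were 4 of 103 (3.88%) and 47 of 3548 (1.32%), so most peaks of that width had no JMJD6 peak. The share of G and C in the 7 peaks was 54.0% (POLR1A) to 62.5% (POLR1B) with a median of 59.1%. Over all N-Myc promoter peaks the median was 58.3% and the quartiles were 54.4% and 61.8%.

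**Figure D4:**
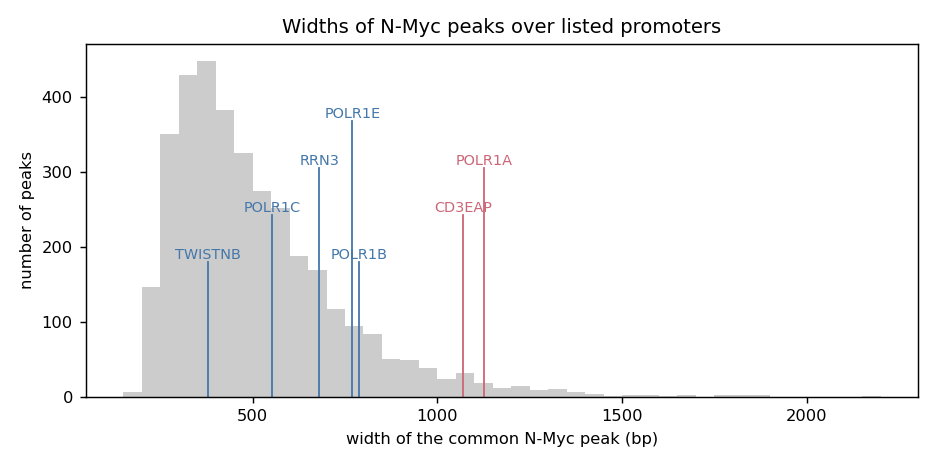
Widths in bp of the 3550 N-Myc common peaks over listed promoters (grey, number of peaks in bins of 50 bp), with the 7 members marked. Red marks those also bound by JMJD6, whose interval is the same in both lists and may not be an N-Myc width alone. POLR1A (1127 bp) and CD3EAP (1069 bp) lie in the right tail and TWISTNB (378 bp) lies left of the median of 452 bp.

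The surroundings of the 7 listed promoters were described from the same lists that chose the genes, and their motifs from the reference sequence. The promoter row of 5 of the 7 (POLR1A, POLR1B, POLR1C, CD3EAP and RRN3) was overlapped by that of a gene on the other strand, and the same held for 35.7% of the 4150 genes in the N-Myc promoter list. An N-Myc enhancer overlapped the promoter row of 6 of the 7, every one but TWISTNB, and 81.8% of the genes in the list had such an overlap, so this is common to the list. The canonical E-box was in 3 of the 7 peaks, and 36.9% of all N-Myc promoter peaks held it. None of the 7 had it within 100 bp of the peak centre, where 23.0% of promoter peaks did. The variant CGCGTG was in 5 of 7 member peaks and 29.2% of all, and CATGTG in 1 of 7 (POLR1B) and 22.5%. At least 1 of the 3 forms was in 6 of the 7, against 67.3% of all promoter peaks. CCAAT was in all 7 and in 48.5%, GGGCGG in 5 and in 57.6%, and CCGGAAG in 4 and in 21.2%. These motifs were searched on both strands, and the wider peaks of the members hold more positions. Within 100 bp of the peak centre, CGCGTG was in 4 of 7 and in 16.5% of promoter peaks, and CATGTG in 1 and in 11.9%. In that window CCAAT was in 3 and in 26.0%, GGGCGG in 3 and in 33.4%, and CCGGAAG in 1 and in 11.5%. In windows of the POLR1A peak's width, centred on all N-Myc promoter peaks, CACGTG was in 43.1%, CGCGTG in 44.3%, CATGTG in 33.0%, CCAAT in 72.8%, GGGCGG in 86.2% and CCGGAAG in 30.6%. In windows of the TWISTNB peak's width, the narrowest, the shares were 31.8%, 25.6%, 18.3%, 41.0%, 52.7% and 17.9% in the same order.

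Among the 3 genes without an N-Myc promoter row, POLR1D had a canonical E-box within 1 kb of its start, at -479, and UBTF and ZNRD1 had none. Over all coding promoters, 29.3% of 19856 held one within 1 kb of the start. The E-box was thus neither present at every listed gene nor missing at every unlisted one. UBTF differed from the other 9 promoters in base composition, with 77.3% G and C over the same 2 kb and a range of 47.4% to 59.9% elsewhere.

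Given that a gene had an N-Myc promoter row, 1.81% of the 4150 genes in that list also had a JMJD6 promoter row, and among the members 2 of 7 did. Listing chose the members, and this count supports nothing further.

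Other genes that act with RNA polymerase I or make the other polymerases were counted in the same way, in 6 lists of 58 genes. Of SL1, TBP and the termination factors of RNA polymerase I, 2 of 7 had an N-Myc promoter row (TAF1C and TAF1D, both subunits of SL1), and TAF1A, TAF1B, TBP, TTF1 and PTRF did not. Of the subunits shared by all 3 polymerases, 3 of 5 were listed (POLR2E, POLR2H and POLR2K). Of the genes named as RNA polymerase II subunits, 3 of 8 were listed (POLR2A, POLR2I and POLR2M). Of the RNA polymerase III subunits 8 of 10 were listed, with POLR3F and POLR3GL the exceptions. Of the initiation factors of RNA polymerase III, 2 of 10 were listed (GTF3C2 and GTF3C3), beside 17.5% of all coding genes. Differences between these lists were not tested. Of 18 genes for pre-rRNA processing and nucleolar factors, 15 were listed, and FBL, DKC1 and BOP1 were not. DKC1 lies on chromosome X, where neither promoter list has a row although 120 N-Myc common peaks lie there. JMJD6 had a promoter row at 1 of the 58 genes, PES1, a factor in maturation of the large ribosomal subunit, with a peak of 635 bp that was identical in both lists.

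**Figure D5:**
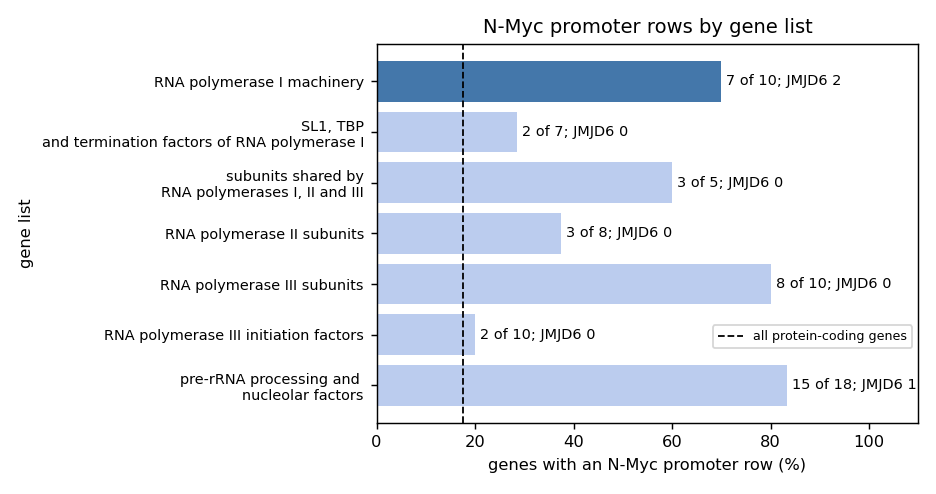
Percent of the genes in each list (vertical axis) that had an N-Myc promoter row (horizontal axis), with the counts and the number of JMJD6 promoter rows beside each bar. The dashed line marks all protein-coding genes (17.5%). The RNA polymerase I machinery is at 70.0%, RNA polymerase III subunits are at 80.0% and nucleolar factors at 83.3%, with 2 of 10 initiation factors of RNA polymerase III listed.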

How the data were processed

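Samples were grouped by the antibody in their labels. According to the labels and the methods of the study, the authors used BWA (build hg19), SAMtools, BEDtools and, for peaks over input DNA, MACS2 2.1.1.20160309 at default settings, keeping peaks found in all 3 replicates. Promoters were 1 kb on each side of a RefSeq start, and enhancers came from H3K27ac data, which were not used here. The paper states that H3K27ac peaks up to 1 kb from start sites were removed first. The enhancers as listed nevertheless held the starts of POLR1A, POLR1C, ZNRD1 and RRN3, so they are not all distal to promoters. The 12 deposited lists give positions in bp without score or coverage, so the depth behind each peak is not known. The study states a minimum read number per sample, which was not used here.

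Lists were read with Python 3.11.15 and pysam 0.24.0 and set against the GRCh37 sequence with lifted GENCODE annotation (version 44). Of 4914 N-Myc promoter rows with an annotated symbol, 87.8% lay within 100 bp of an annotated start of that gene. Of 4150 N-Myc promoter symbols, 3958 matched the annotation directly or through RefSeq synonyms. Overlap meant at least 1 bp. Plus-strand starts were taken 1 base after the centre of the promoter row. Genes without a row were placed by their MANE Select start. Motifs and 75-base words were counted on both strands. Plots were made with matplotlib 3.10.9. Motif, overlap and distance procedures were tested on simulated data.

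The genes and lists were chosen with earlier results of these data known, and no test was made over them. Named were all members, genes with overlapping promoter rows, pathway genes with a JMJD6 row, up to 5 genes with the same listing and the nearest JMJD6 width, and the nearest peaks of unlisted members. Genes named with enhancers were added after their values were seen.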

Additional observations from a re-analysis of the deposited data

How the results depend on the processing

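Of 16 alternatives, 11 left a count of genes within 1.5 times of that reported. The other 5 were both motif alternatives and the 3 for the percent of genes, which was held to its binomial interval. The 7 genes with N-Myc promoter rows were the same genes with a peak within 500 bp, 1 kb or 5 kb of any annotated start and with at least 50% of a peak inside the row, and without TWISTNB they were 6 when only peaks wider than the list median counted. POLR1A and CD3EAP stayed the genes with JMJD6 rows under all 5 alternatives, and the genes bound by both when the peaks had to overlap each other. That overlap was fixed in advance, since both genes had the same interval in both lists. The peaks of all 7 genes covered the listed start and lay within 1 kb of it. The windows could therefore add genes but not drop one. The 50% rule was applied only to genes with a promoter row, so it could neither add nor drop a gene. For JMJD6, the nearest peak of the other 8 genes lay 119 kb or more from the start used, far outside these windows. The count of members with CACGTG went from 3 to 0 within 100 bp of the peak centre and to 6 with CATGTG or CGCGTG allowed. The percent of genes with an N-Myc promoter row went from 17.5% (95% exact binomial interval 17.0 to 18.0, counting error only) to 6.35% over annotated genes of any type, 20.8% for peaks within 1 kb of any annotated start, and 18.3% over autosomal coding genes, the last chosen after seeing the data. No paired analysis was possible because the lists have no column per replicate, and replicates could not be left out in turn. The lists hold no score, so width stood in for a stricter threshold.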
